A study of Mus musculus with 4 samples.

Results

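The enzymes of the tricarboxylic acid (TCA) cycle and the proteins that bring pyruvate to it, or draw intermediates from it, were followed in brown adipose tissue of mice lacking Tsku, a gene for a secreted small leucine-rich proteoglycan. A list of 37 genes was set by name and role, by a rule that uses no measured value, though earlier results of these data were known when it was drawn up. Of these, 36 had at least 1 probe set annotated to that gene alone, out of 22180 genes measured in all, and the brightest such probe set of each gene was kept. Mpc2, which encodes the partner of Mpc1 in the mitochondrial pyruvate carrier, had no such probe set and was not analysed here. The tissue came from 2 Tsku knockout (KO) samples and 2 wild-type (WT) samples, each hybridised to 1 array. All mice were C57BL/6 males aged 4 months on a chow diet, and how the Tsku allele was made is not given in the sources used here. The comparison asks how loss of Tsku alters gene expression in brown fat.

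The TCA cycle oxidises acetyl-CoA in the mitochondrial matrix and passes its electrons to the respiratory chain. Pyruvate enters it as acetyl-CoA through the pyruvate dehydrogenase complex, which kinases switch off and phosphatases switch on, or as oxaloacetate through pyruvate carboxylase. Brown adipocytes are packed with mitochondria and burn fatty acids and glucose to make heat, and they also draw citrate from the cycle to build fatty acids.

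The labels describe the replicates as biological without naming the mice, and p-values here reflect variation among these 4 arrays, some of which may be technical. Tsku itself had no probe set annotated to it alone, and the genotypes rest on the labels. Array medians lay between 0.56 and 0.58 on the deposited log2 scale. Of 10 brown adipocyte markers, Ucp1 and Cidea among them, 9 were above background on all 4 arrays, and Elovl3 was above it on 1 KO array and 1 WT array. All 10 had a higher mean in KO, by a median of 0.36, as did 52.6% of all genes. Their summed linear levels were 2703 and 2760 on the KO arrays, against 2270.2 and 2156 on the WT arrays. At an unadjusted limma p under 0.05 there were 3 of the 10, Dio2 (log2 change 2.03), Prdm16 (0.999) and Ucp1 (0.55). Of all genes, 2.89% were higher in KO at that level. Of the 10 markers, 0 passed the adjusted threshold in limma. Background on an array is the 95th percentile over 1405 probe sets of receptors for odours and pheromones (Olfr and Vmn genes). Markers of other cell types differed in mean between the genotypes, unevenly between arrays, and their part in the results below was not tested. All 24 skeletal muscle markers were lower in KO, with a summed linear level of 309 and 133 on the KO arrays, against 440.0 and 678 on the WT arrays, and Myot and Ryr1 were at or below background on both KO arrays. Of 14 liver markers, 13 were higher in KO, with sums of 530.1 and 420.4 in KO and 281 and 316 in WT. Hp, which fat also expresses, made up most of these sums, and the other 13 markers summed to 96.3 and 48.4 in KO and 38.2 and 28.6 in WT. Of the 14 markers, 6 were above background on all 4 arrays and Fgg on 0. All 15 macrophage markers had a lower mean in KO, with sums of 178 and 322 in KO and 337 and 352 in WT, and none of them was at background. Relative to the mean of each gene, their median was -0.61 and 0.076 on the KO arrays, against 0.24 and 0.24 in WT. That of the liver markers was 0.51 and -0.078 in KO, against -0.089 and -0.31 in WT. The genotypes did not overlap for 17 muscle and 7 macrophage markers, lower in KO (15.8% of all genes). The same held for 7 liver and 6 brown adipocyte markers, higher in KO (19.4% of all genes). In bulk tissue, fewer cells of a type and less RNA per cell cannot be told apart.

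Expression of the TCA cycle and pyruvate genes was close between the genotypes. In KO 19 of the 36 genes had a higher mean (52.8%, against 52.6% of all genes) and 17 a lower mean. The count with a higher mean ran from 18 to 20 over the alternative scalings and with single arrays left out. The median log2 change, KO minus WT, was 0.0076 (-0.0032 after cyclic loess scaling), beside 0.016 over all genes tested. The absolute log2 change was under 0.3 for 30 of the 36 genes (83.3%), as it was for 73% of all genes and for 69.3% of genes above background on all 4 arrays. Of the 36 genes, 26 had a mean over 6 on the log2 scale, as did 1142 of all genes. The share of small changes was not taken for genes of like level. Only Pcx, Pck2, Me3, Got1 and Got2 differed by more than 0.4.

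In limma, with p-values adjusted over the whole table by the Benjamini-Hochberg method, 0 of the 36 genes had an adjusted p under 0.05, and the adjusted p ran from 0.872 to 0.999. The same held for all genes, of which 0 of 22180 passed (0%). At an unadjusted p under 0.05 there was 1 gene of the 36, Pcx, where 5.56% of all genes reached that level. In this fit the median distance from a change to the end of its 95% interval was 0.46. Most changes below about that size were therefore not detectable in this fit with 4 arrays. For 32 of the 36 genes the whole interval lay between -1 and 1, and the exceptions were Pcx, Pck2, Me3 and Got2. The widths also depend on the prior variance. When it was allowed to follow the mean level, the interval for Ogdh was 0.070 to 0.39, beside -0.21 to 0.67 here. The interval for Pdk1 was then -0.25 to 0.80, beside -0.19 to 0.75 here.

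**Figure D1:**
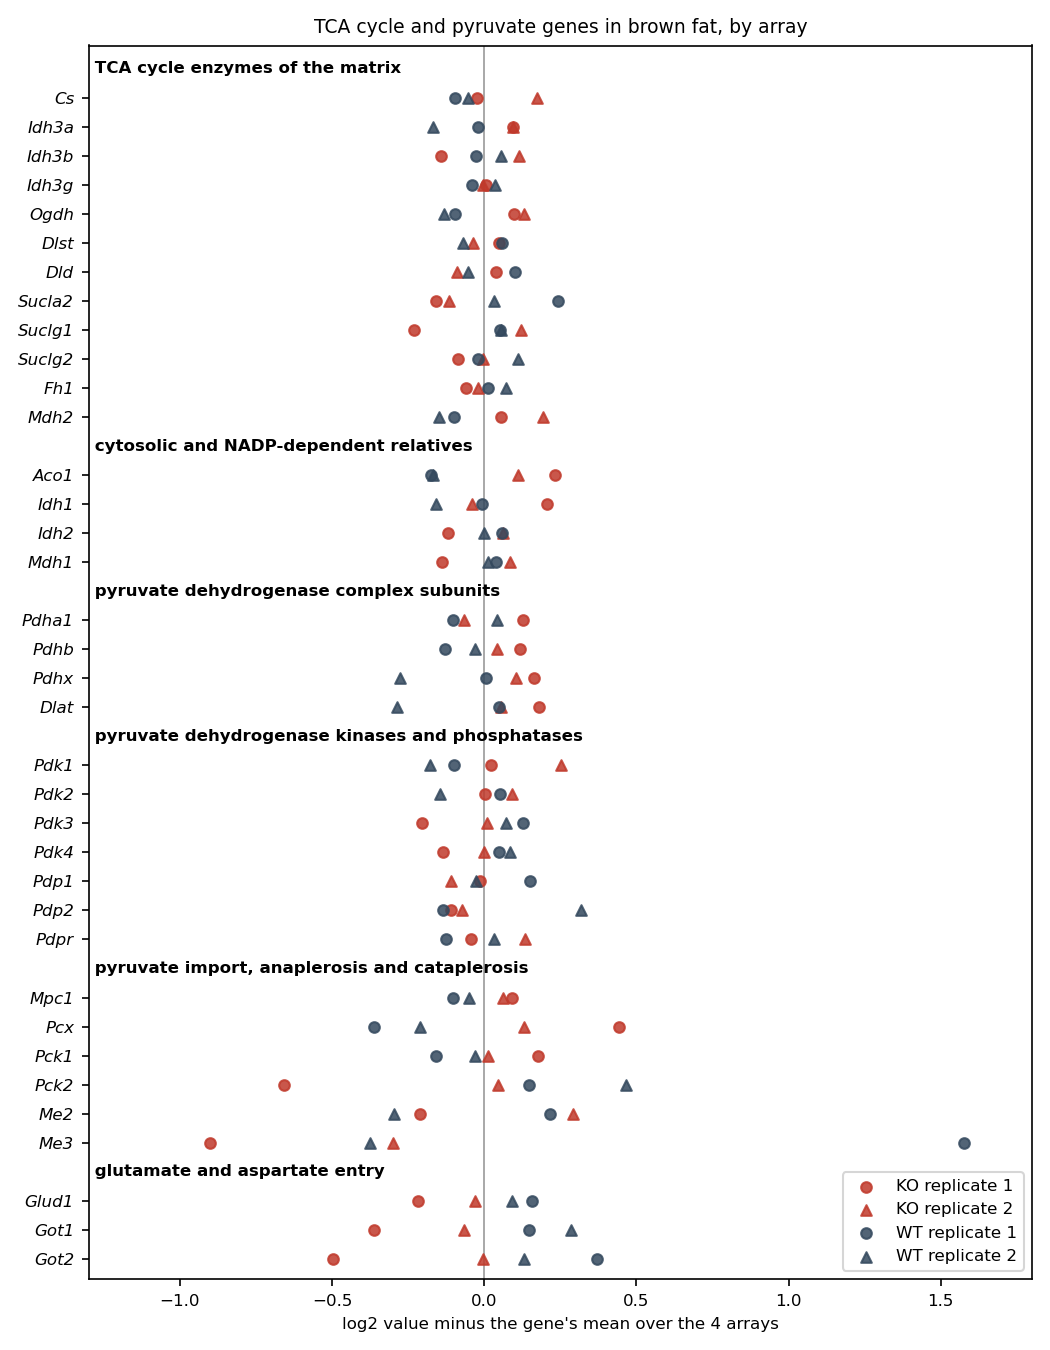
Log2 value of each of the 36 genes on each array, relative to the mean of that gene over the 4 arrays, ordered by role; red marks KO, dark blue WT, circles replicate 1 and triangles replicate 2. On all 4 arrays 30 of the 36 genes lie within 0.3 of their mean, while Me3 stands apart on WT replicate 1 and Got1, Got2, Glud1 and Pck2 lie lowest on KO replicate 1.

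All 36 genes were above background on all 4 arrays. The KO and WT values did not overlap for 20 of them (55.6%), 12 with KO higher and 8 with KO lower. Non-overlap was found for 35.2% of all genes, with KO higher in 19.4% and lower in 15.8%, and for 36.5% of genes above background on all 4 arrays. Of the 26 genes with a mean over 6 on the log2 scale, 15 (57.7%) did not overlap, beside 42.6% of the 1142 genes over that level. The difference between these shares was not tested.

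The estimate of noise matters for such bright genes. When the prior variance was allowed to follow the mean level, 10 of the 36 genes (27.8%) had an unadjusted p under 0.05, where 5.49% of all genes did. Of genes with a mean over 6 the share was 10.7%, and 10 of the 26 listed genes over that level (38.5%) reached it. In that fit Pcx, Mdh2, Ogdh, Aco1, Idh3a, Pck1 and Mpc1 were the higher ones in KO, and Sucla2, Got2 and Glud1 the lower ones. The smallest adjusted p among the 36 was still 0.817, for Pcx.

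The enzymes of the cycle itself, located in the mitochondrial matrix, gave 6 genes higher and 6 lower in KO, with a median log2 change of -0.013. Changes ran from -0.28 to 0.25, and 0 of the 12 had an unadjusted p under 0.05. On the KO arrays the median of the 12 genes, relative to the mean of each gene, was -0.0085 and 0.045, against -0.020 and -0.010 on the WT arrays.

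Cs encodes citrate synthase, which joins acetyl-CoA to oxaloacetate and starts the cycle. It measured 9.59 and 9.78 on the KO arrays, against 9.51 and 9.55 on the WT arrays, a log2 change of 0.15 (95% interval -0.31 to 0.61). The NAD-dependent isocitrate dehydrogenase has 3 subunit genes, which differed by 0.19 for Idh3a, -0.029 for Idh3b and 0.0027 for Idh3g, whose sign turned under each other scaling. Idh3a read 9.38 on both KO arrays, against 9.27 and 9.12 on the WT arrays, and was the only one of these subunits whose genotypes did not overlap.

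The oxoglutarate dehydrogenase complex, which releases the second carbon dioxide of the cycle, is built from the products of Ogdh, Dlst and Dld. Ogdh, the dehydrogenase subunit, measured 9.15 and 9.18 in KO, against 8.96 and 8.92 in WT, a log2 change of 0.23 (SE 0.18, 95% interval -0.21 to 0.67, limma adjusted p = 0.900). Both KO arrays lay above both WT arrays. Dlst, the succinyltransferase, and Dld, the dehydrogenase shared with the pyruvate complex, differed by 0.012 and -0.048, with overlapping arrays.

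Succinyl-CoA synthetase regenerates a nucleoside triphosphate, and its nucleotide is set by the partner of the common subunit Suclg1. Sucla2, the ADP-forming subunit, had the lowest change among the enzymes of the cycle. It read 8.21 and 8.25 in KO, against 8.61 and 8.40 in WT, a log2 change of -0.28 (SE 0.19, 95% interval -0.74 to 0.19, limma adjusted p = 0.895). The KO values lay below both WT values. The GDP-forming subunit Suclg2 differed by -0.089 and the common subunit Suclg1 by -0.11, each with overlapping arrays, and the sign for Suclg2 turned to 0.0025 with the mean of its probe sets.

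Fumarase, encoded by Fh1, differed by -0.083, with both KO arrays (8.76 and 8.80) below both WT arrays (8.83 and 8.89). Mdh2, the mitochondrial malate dehydrogenase that closes the cycle, had the highest change of the 12. It measured 9.26 and 9.39 in KO, against 9.10 and 9.05 in WT, a log2 change of 0.25 (SE 0.18, 95% interval -0.20 to 0.70, limma adjusted p = 0.897). Succinate dehydrogenase, the step shared with the respiratory chain, was read from 4 genes outside the list. Sdha, Sdhb, Sdhc and Sdhd differed by 0.041, -0.00061, 0.11 and 0.19, and 0 of them had an unadjusted p under 0.05.

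Relatives of these enzymes in the cytosol, or using NADP, gave 2 higher and 2 lower genes. Aco1 encodes the cytosolic aconitase, which doubles as an iron-sensing RNA-binding protein. Its level was 7.06 and 6.93 in KO, against 6.65 and 6.65 in WT, a log2 change of 0.34 (SE 0.18, 95% interval -0.10 to 0.79, limma adjusted p = 0.886). Both KO arrays were higher, by more than the spread within either genotype. Idh1, the cytosolic NADP-dependent isocitrate dehydrogenase, read 7.62 and 7.37 in KO, against 7.40 and 7.25 in WT, with a change of 0.17 (SE 0.20, adjusted p = 0.930) and overlapping arrays. Its mitochondrial counterpart Idh2 differed by -0.057 and the cytosolic malate dehydrogenase Mdh1 by -0.053.

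**Figure D2:**
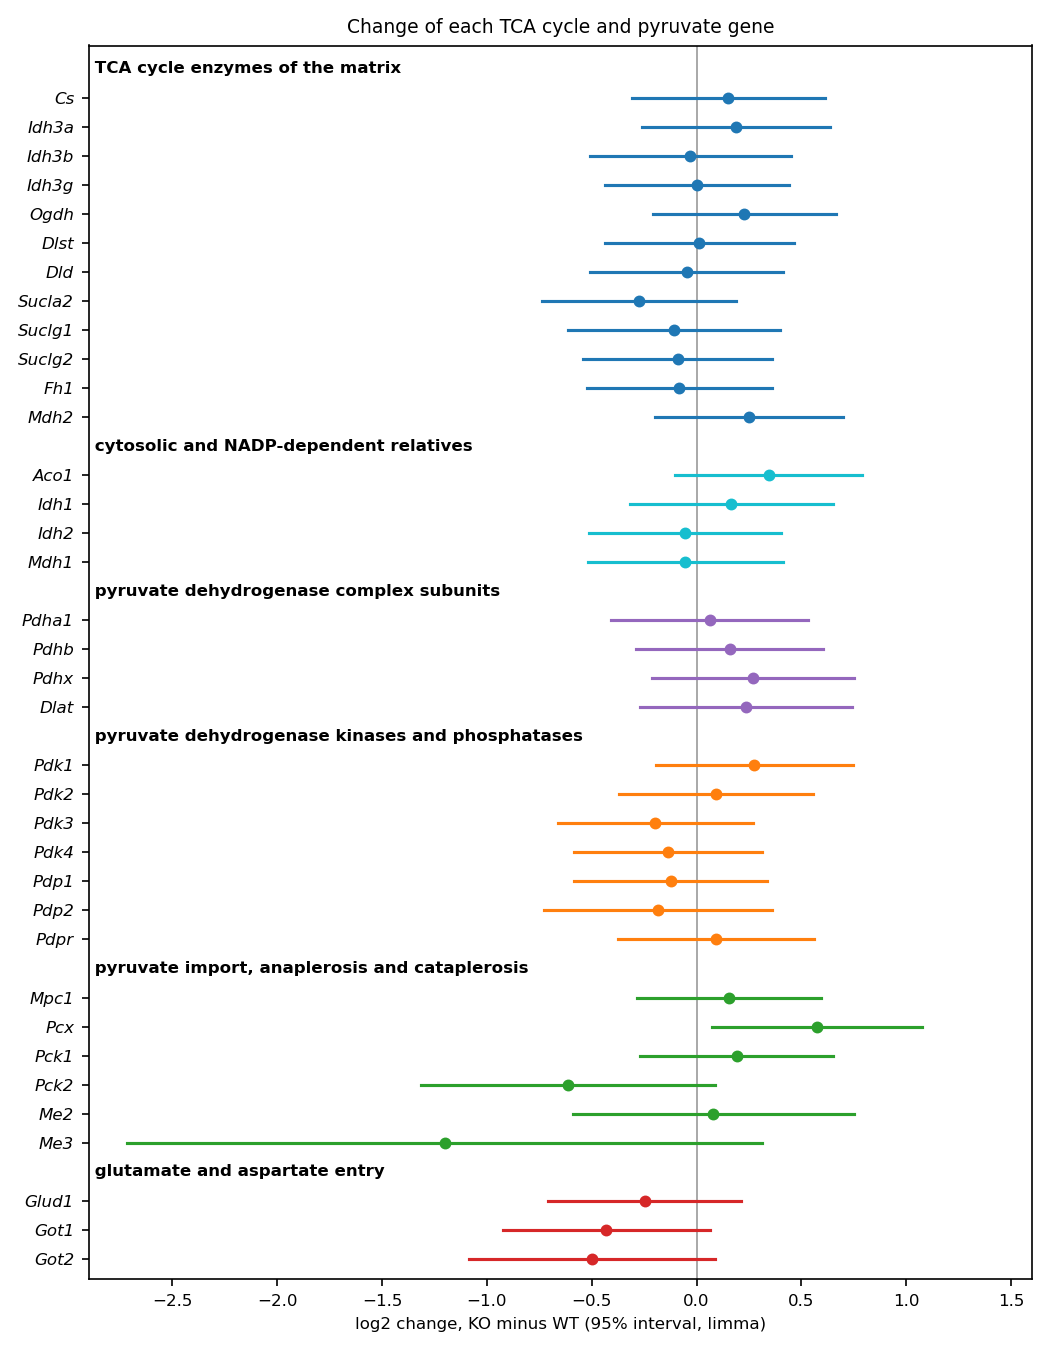
Log2 change, KO minus WT, of each of the 36 genes, with its 95% interval from limma, coloured by role. Only the interval of Pcx (0.07 to 1.08) lies on 1 side of 0, and that of Me3 is the widest (-2.72 to 0.31).

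The 4 measured subunits that belong to the pyruvate dehydrogenase complex alone had a higher mean in KO, by a median of 0.20, while Dld, the subunit it shares with the oxoglutarate complex, differed by -0.048. None of these had an unadjusted p under 0.05 in limma. Relative to the mean of each gene, their median was 0.15 and 0.049 on the KO arrays and -0.048 and -0.15 on the WT arrays. Pdhx, which anchors the dehydrogenase component to the core, measured 5.81 and 5.75 in KO, against 5.65 and 5.37 in WT. The log2 change was 0.27 (SE 0.20, 95% interval -0.21 to 0.75, limma adjusted p = 0.897). Dlat, the acetyltransferase of the core, measured 7.54 and 7.42 in KO, against 7.41 and 7.08 in WT, a change of 0.24 (SE 0.21, 95% interval -0.27 to 0.74, limma adjusted p = 0.907). In both genes the gap within WT, 0.28 for Pdhx and 0.34 for Dlat, was wider than the change. Without WT replicate 2 the changes were 0.13 for Pdhx and 0.068 for Dlat. The decarboxylase subunits Pdhb and Pdha1 differed by 0.16 and 0.062, without and with overlap of the arrays.

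The kinases that phosphorylate and silence the complex, and the phosphatases that restore it, gave 3 higher and 4 lower genes, with a median of -0.12. Changes lay between -0.20 and 0.28. Pdk4 is induced in many tissues by fasting and fatty acids. It measured 9.03 and 9.17 in KO, against 9.22 and 9.25 in WT, a log2 change of -0.13 (95% interval -0.58 to 0.31), with both KO arrays lower. Pdk2, the widely expressed kinase, differed by 0.094 with overlapping arrays.

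Pdk1, a kinase known as a target of the hypoxia factor, read 4.04 and 4.27 in KO, against 3.92 and 3.84 in WT. Its log2 change was 0.28 (SE 0.19, 95% interval -0.19 to 0.75, limma adjusted p = 0.896), with both KO arrays higher. The transcript of Hif1a, the gene for that factor, differed by -0.12, and the activity of the factor was not measured. Pdk3 read 0.85 and 1.06 in KO, against 1.18 and 1.13 in WT, a change of -0.20 (SE 0.19, adjusted p = 0.919). These values lie little above the background of 0.63 to 0.81. The phosphatase genes Pdp1 and Pdp2 differed by -0.12 and -0.18, and Pdpr, the regulatory subunit, by 0.093, all with overlapping arrays.

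The widest changes were among genes that feed or drain the cycle. Of the 6 measured genes of pyruvate import, anaplerosis and cataplerosis, 4 were higher in KO and 2 lower, with a range from -1.20 to 0.57. Pcx encodes pyruvate carboxylase, the biotin enzyme that turns pyruvate into oxaloacetate and refills the cycle. It measured 6.98 and 6.67 on the KO arrays, against 6.17 and 6.32 on the WT arrays. Both KO arrays lay above both WT arrays. The means were 6.82 ± 0.22 in KO and 6.25 ± 0.11 in WT (SD, n = 2 each), a log2 change of 0.57 (SE 0.20, 95% interval 0.07 to 1.08) or 1.49-fold. Pcx had the smallest p of the 36 genes, 0.0311 unadjusted and 0.872 after adjustment in limma. The change stayed between 0.42 and 0.73 when single arrays were left out, and the unadjusted limma p passed 0.05 without WT replicate 1 (0.123), WT replicate 2 (0.0536) or KO replicate 1 (0.120). Pyruvate carboxylase is abundant in liver as well as in fat. KO replicate 1 had the highest value both for Pcx and for the sum of liver markers, and the part of liver RNA in the change was not tested.

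RefSeq (GRCm38.p6) places starts of Pcx transcripts at 2 positions, and the 250 bases before each are shown because Pcx had the smallest p. The first window is chr19:4510222-4510471 and the second chr19:4594069-4594318, both on the + strand and written from 5′ to 3′.
Pcx, first start: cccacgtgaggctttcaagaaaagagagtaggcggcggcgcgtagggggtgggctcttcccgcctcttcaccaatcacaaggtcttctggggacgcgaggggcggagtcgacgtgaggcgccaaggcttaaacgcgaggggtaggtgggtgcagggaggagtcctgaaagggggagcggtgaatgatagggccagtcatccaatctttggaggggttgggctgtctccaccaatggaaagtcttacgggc
Pcx, second start: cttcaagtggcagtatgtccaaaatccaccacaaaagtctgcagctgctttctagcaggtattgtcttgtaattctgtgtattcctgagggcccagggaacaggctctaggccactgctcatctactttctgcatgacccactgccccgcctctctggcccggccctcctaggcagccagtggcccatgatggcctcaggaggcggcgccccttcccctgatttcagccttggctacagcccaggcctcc

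Pck1 and Pck2 encode the cytosolic and mitochondrial forms of phosphoenolpyruvate carboxykinase, which drains oxaloacetate. In fat the cytosolic form supplies glycerol phosphate for triglyceride. Pck1 read 9.86 and 9.69 in KO, against 9.52 and 9.65 in WT, a log2 change of 0.19 (95% interval -0.27 to 0.65), with both KO arrays higher. Pck2 went the other way. It measured 3.20 and 3.91 in KO, against 4.01 and 4.33 in WT, a log2 change of -0.61 (SE 0.29, 95% interval -1.31 to 0.09, limma adjusted p = 0.872). Its arrays did not overlap, but KO replicate 1 set much of the size: the change was -0.26 without that array and -0.97 without KO replicate 2.

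Me2 and Me3 encode mitochondrial malic enzymes, which make pyruvate from malate with NAD or NADP. Me3 had the largest change of the 36 genes and the widest error. It measured 2.39 and 2.99 in KO, against 4.87 and 2.92 in WT, a log2 change of -1.20 (SE 0.62, 95% interval -2.72 to 0.31, limma adjusted p = 0.873). WT replicate 2 lay between the KO arrays, so the genotypes overlapped. Without WT replicate 1 the change was -0.22, and without WT replicate 2 it was -2.18. Me2 differed by 0.081, with overlapping arrays. Mpc1, a subunit of the mitochondrial pyruvate carrier, differed by 0.15, with both KO arrays (9.35 and 9.32) above both WT arrays (9.16 and 9.21).

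**Figure D3:**
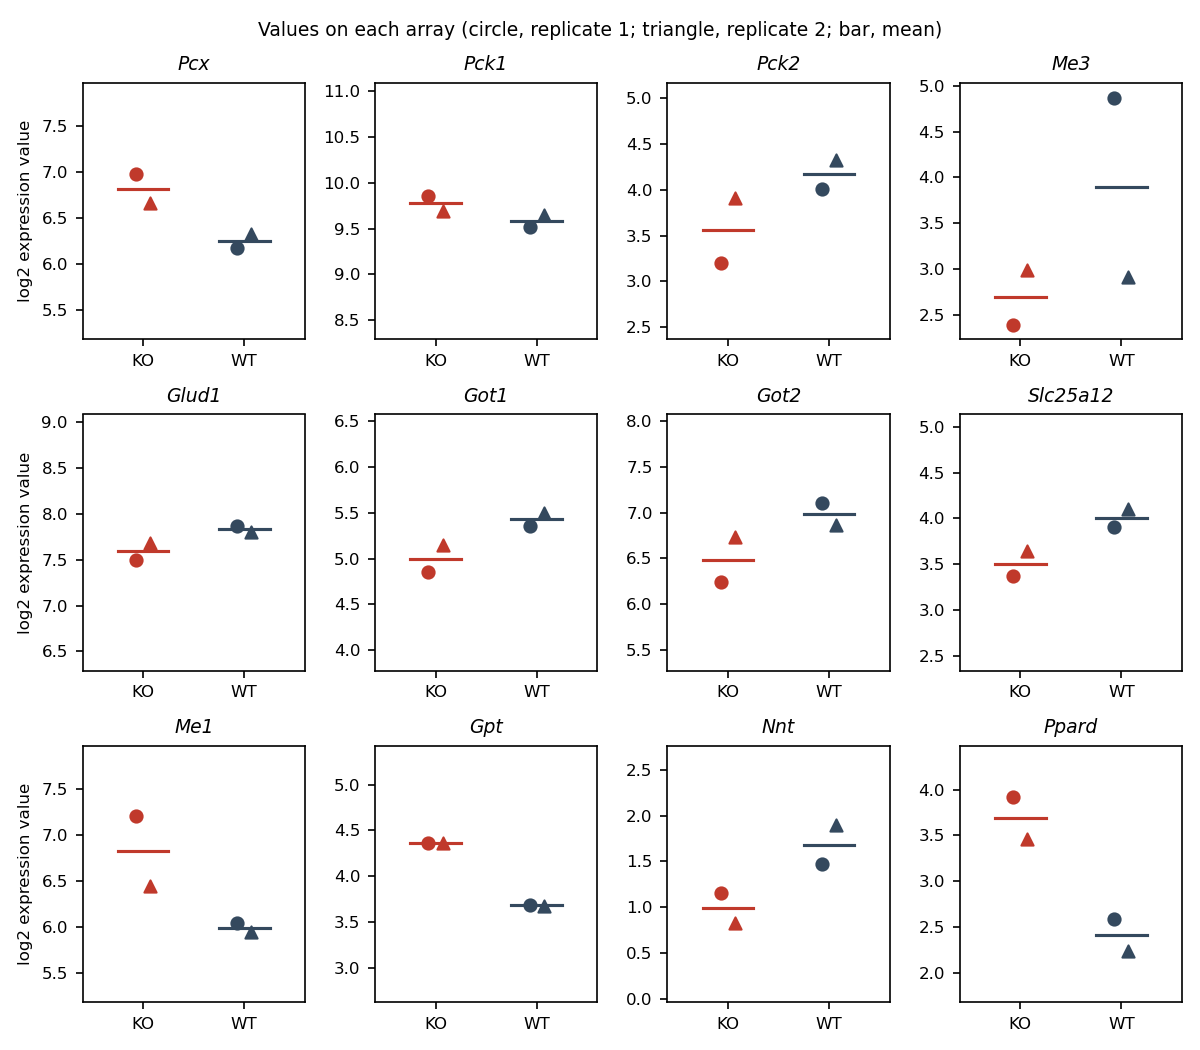
Log2 expression value on each array for 12 genes described in the text, KO left and WT right, with circles for replicate 1, triangles for replicate 2 and bars for the means of 2 arrays; every panel spans the same height of the log2 scale. Pcx, Me1, Gpt and Ppard lie higher on both KO arrays and Glud1, Got1, Got2, Slc25a12, Nnt and Pck2 lower, while Me3 is set apart by WT replicate 1.

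All 3 genes of glutamate and aspartate entry were lower in KO, with a median log2 change of -0.43 and no overlap between the genotypes in any of them, where 15.8% of all genes did not overlap with KO lower. Got2 and Got1 encode the mitochondrial and cytosolic aspartate aminotransferases, which work with the malate dehydrogenases in the shuttle that carries NADH equivalents into mitochondria. Got2 measured 6.24 and 6.73 in KO, against 7.10 and 6.86 in WT, a log2 change of -0.50 (SE 0.24, 95% interval -1.08 to 0.09, limma adjusted p = 0.872). Got1 measured 4.85 and 5.15 in KO, against 5.36 and 5.50 in WT, a change of -0.43 (SE 0.20, 95% interval -0.93 to 0.07, limma adjusted p = 0.872). Glud1, the glutamate dehydrogenase, read 7.50 and 7.69 in KO, against 7.87 and 7.81 in WT, a change of -0.25 (95% interval -0.71 to 0.21, limma adjusted p = 0.897). KO replicate 1 was the lowest array for each of the 3 genes. Without it the changes were -0.25 for Got2, -0.28 for Got1 and -0.15 for Glud1, all still below 0. With the mean of its 2 probe sets, Got2 differed by -0.20.

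Aspartate aminotransferases are abundant in striated muscle, and the skeletal muscle markers were lower in the same samples. The muscle sum was lowest on KO replicate 2 and highest on WT replicate 2. Got1, Got2 and Glud1 were lowest on KO replicate 1. Got1 was highest on WT replicate 2, and Got2 and Glud1 on WT replicate 1. The macrophage sum was also lowest on KO replicate 1. The part of either cell type in these values was not tested.

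The 250 bases before the RefSeq starts (GRCm38.p6) of Got1, chr19:43524606-43524855, and of Got2, chr8:95888402-95888651, are shown because the paired enzymes were lower together. Both lie on the - strand and are written from 5′ to 3′. Capitals mark AAGGTCA, the core letters bound by estrogen-related receptors, factors known to drive mitochondrial genes.
Got1: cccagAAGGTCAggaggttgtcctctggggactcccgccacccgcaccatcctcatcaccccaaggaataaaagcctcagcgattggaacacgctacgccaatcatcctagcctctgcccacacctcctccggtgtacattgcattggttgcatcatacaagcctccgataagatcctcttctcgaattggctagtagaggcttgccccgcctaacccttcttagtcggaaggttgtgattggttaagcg
Got2: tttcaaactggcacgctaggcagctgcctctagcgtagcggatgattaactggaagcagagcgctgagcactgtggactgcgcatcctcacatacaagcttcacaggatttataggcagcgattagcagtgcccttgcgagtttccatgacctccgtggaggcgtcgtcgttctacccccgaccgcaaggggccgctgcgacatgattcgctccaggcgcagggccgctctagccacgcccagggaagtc

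Across the listed genes, 34 of 37 had such a window. The longer estrogen-related receptor site TCAAGGTCA, which contains the core, was found on either strand in 0 of these 34 genes, where 0.422% of 27025 genes held it. The palindromic site of nuclear respiratory factor 1 was likewise in 0 of 34, where 0.877% of all genes held it. The core AAGGTCA, searched after the data were seen, was in 1 of 34 (2.94%), Got1, where its first base lies at -245 from the start, against 4.7% of all genes. These counts describe letters in short windows and say nothing of binding.

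**Figure D4:**
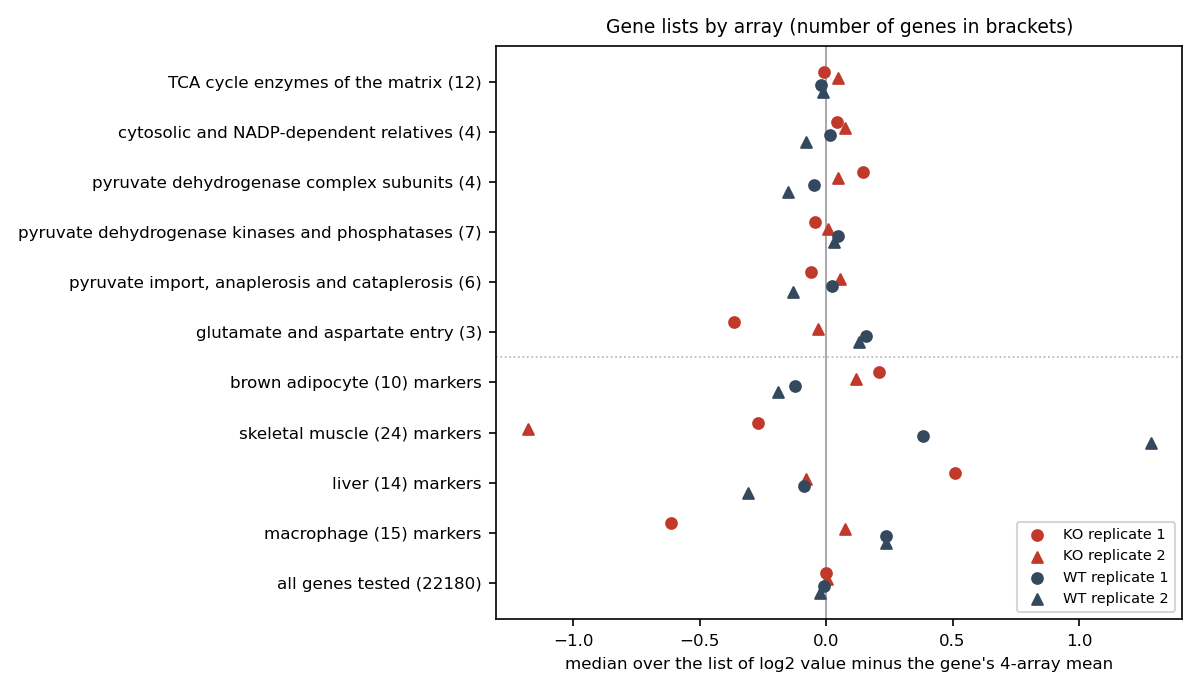
Median, over each gene list, of the log2 value minus the mean of each gene over the 4 arrays, for the 6 roles (above the dotted line), 4 marker lists and all genes; red marks KO and dark blue WT. The glutamate and aspartate genes sit at -0.36 and -0.03 on the KO arrays, against 0.16 and 0.13 on the WT arrays, while the muscle markers sit at -0.27 and -1.18 in KO, against 0.38 and 1.28 in WT.

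Genes beside these in the pathway were read from 4 further lists, of which 45 of 48 genes were measured, 29 of them higher and 16 lower in KO, with a median of 0.068. At an unadjusted p under 0.05 there were 5, 3 higher and 2 lower, and 0 passed the adjusted threshold. All 5 had a limma adjusted p of 0.872. The shares over all genes were 2.89% higher and 2.67% lower.

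Among 18 other enzymes of the cycle and of pyruvate, 12 were higher and 6 lower, and 3 had an unadjusted p under 0.05. Gpt, the cytosolic alanine aminotransferase that links pyruvate with glutamate, measured 4.36 and 4.36 in KO, against 3.68 and 3.68 in WT. Its arrays differed little within a genotype, and the log2 change was 0.68 (SE 0.18, 95% interval 0.24 to 1.12, limma adjusted p = 0.872). The mitochondrial form Gpt2 differed by 0.39 with overlapping arrays. Me1, the cytosolic malic enzyme that supplies NADPH for fatty acid synthesis, measured 7.21 and 6.45 in KO, against 6.04 and 5.94 in WT. The change was 0.84 (SE 0.28, 95% interval 0.14 to 1.53), and 0.46 without KO replicate 1. Acly, which splits exported citrate into acetyl-CoA, differed by 0.45 (95% interval -0.0044 to 0.90), with 7.23 and 7.10 in KO, against 6.68 and 6.76 in WT.

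Nnt encodes the transhydrogenase that makes NADPH from NADH across the inner mitochondrial membrane. It measured 1.15 and 0.83 in KO, against 1.47 and 1.89 in WT, a log2 change of -0.69 (SE 0.24, 95% interval -1.27 to -0.12). The C57BL/6J substrain is known to carry a deletion within Nnt, and the labels give C57BL/6 without a substrain. The values lie near the background of 0.63 to 0.81, and whether the substrains of the samples differed was not tested.

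Of 9 carriers of pyruvate, lactate, malate, citrate, aspartate and glutamate, 6 were higher and 3 lower. Slc25a12, the aspartate and glutamate carrier of the same shuttle as Got1 and Got2, was the 1 with an unadjusted p under 0.05. It measured 3.37 and 3.64 in KO, against 3.91 and 4.10 in WT, a log2 change of -0.50 (SE 0.20, 95% interval -0.99 to -0.0041, limma adjusted p = 0.872). Of other genes of that shuttle, Slc25a11 and Mdh1 differed by 0.071 and -0.053, with overlapping arrays. Mdh2 differed by 0.25, with both KO arrays higher. Slc25a13 differed by -0.22, with both KO arrays lower and all values near background. Slc25a12 is also known from striated muscle, whose marker sum was lower in KO. Slc25a12 was lowest on KO replicate 1 and highest on WT replicate 2. The muscle sum was lowest on KO replicate 2 and highest on WT replicate 2. The part of muscle RNA in the change of Slc25a12 was not tested. The citrate carrier Slc25a1 read 7.89 and 7.30 in KO, against 7.13 and 7.18 in WT, a change of 0.44 (95% interval -0.16 to 1.04), and 0.15 without KO replicate 1. Of 5 genes of lipoate synthesis and transfer, which supply the cofactor of Dlat and Dlst, 3 were higher and 2 lower, and the smallest unadjusted p values were 0.0739 for Lipt1 (change 0.63) and 0.296 for Mcat (change -0.22).

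Of 13 regulators known for these genes, 8 were higher and 5 lower. Ppard, a nuclear receptor that promotes fatty acid oxidation, was the 1 with an unadjusted p under 0.05. It measured 3.92 and 3.46 in KO, against 2.59 and 2.23 in WT, a log2 change of 1.27 (SE 0.25, 95% interval 0.67 to 1.88, limma adjusted p = 0.872). Pdk4, a known target of this receptor in muscle, differed by -0.13. Esrra, Nrf1 and Tfam, which act on nuclear or mitochondrial genes for respiration, differed by 0.068, -0.18 and 0.31. Also on this list, Ppargc1a differed by 0.35, with overlapping arrays, and Ppargc1b by -0.30, with both KO arrays lower.

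**Figure D5:**
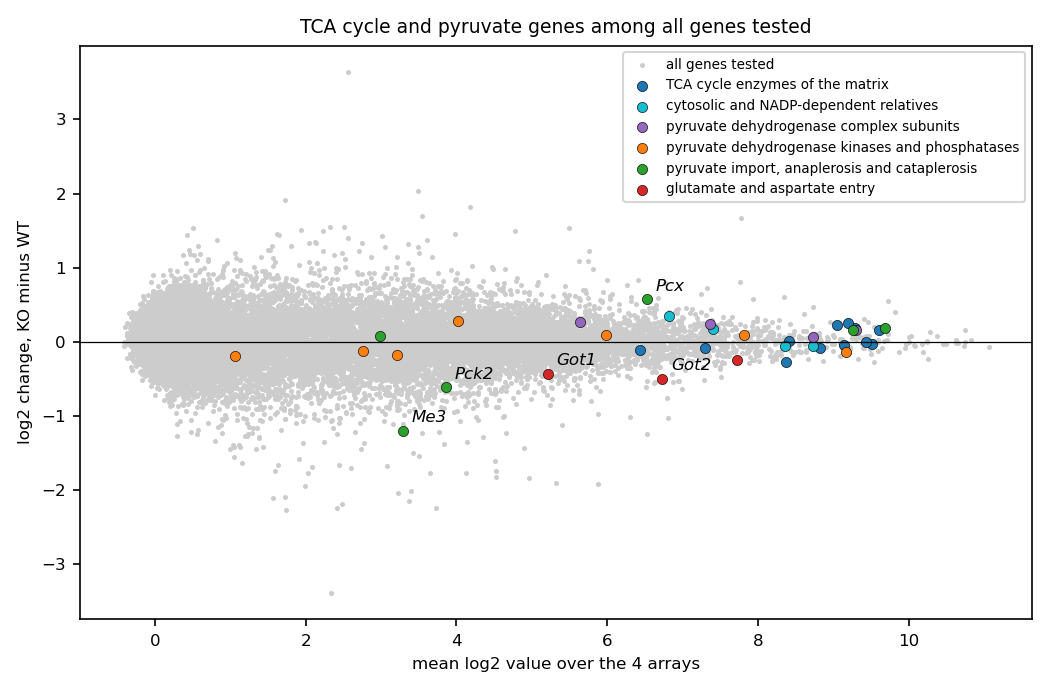
Log2 change, KO minus WT, against the mean log2 value over the 4 arrays for all 22180 genes (grey) and the 36 TCA cycle and pyruvate genes (coloured by role). Most of the 36 lie at the bright end near 0, and the named genes Pcx, Pck2, Me3, Got1 and Got2 are those that differed by more than 0.4.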

How the data were processed

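Total RNA from brown adipose tissue was labelled with biotin and hybridised to whole-transcript arrays, per the labels' protocols. The authors deposited normalized log2 expression values for 41345 probe sets. The submitters' processing notes name RMA, oligo and limma, with neither their roles nor versions, and the genome build is not given in the sources used here. Since RMA works in log2, base 2 was assumed. The values sit lower than RMA usually gives, and the origin of this is not stated. A constant offset would cancel in differences, but whether it is constant was not tested.

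Gene symbols came from GEO's platform annotation (23521 with 1 gene symbol, 1814 with several, 16010 unnamed here), and 23328 of the probe sets with 1 symbol matched RefSeq by Entrez ID. The brightest probe set of each gene was kept, giving 22180 genes. KO and WT were compared two-sided with limma 3.58.1 under R 4.3.3 (lmFit, eBayes), with no block or filter, adjusted over all genes. Residual and prior degrees of freedom were 2 and 3.96. The number of arrays limits the precision. Scripts were tested on simulated data.

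Genes and lists were chosen with earlier results of these data known. Values on every array are given for genes with an unadjusted p under 0.05, for the 2 with the largest absolute change in each role, with values for paralogs and partner subunits set beside them. Of the other pathway lists, genes with an unadjusted p under 0.05 are named, or the 2 with the smallest p. Acly, Slc25a1, Slc25a11, Slc25a13, Hif1a, Esrra, Nrf1, Tfam, Ppargc1a, Ppargc1b and the genes of succinate dehydrogenase fall outside that rule. So do the values by array of Cs, Idh3a, Ogdh, Fh1, Mpc1, Pck1, Pdk4 and Glud1. All of these were added after their values were seen. The alternatives were a replicate block, a filter at the median level, the mean or most variable probe set, 3 renormalizations, 2 other priors, an unadjusted threshold and each array left out. The count at an unadjusted p, the liver sum without Hp, Slc25a1 with arrays left out, the split at a mean over 6 and the motif AAGGTCA were added after the data were seen. Motifs were sought in the 250 bases before RefSeq starts.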

Additional observations from a re-analysis of the deposited data

How the results depend on the processing

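None of the 36 genes had an adjusted p under 0.05 under any of the 13 alternative fits, and the smallest was 0.251, for Me3 without WT replicate 2. At an unadjusted p under 0.05 there was 1 of the 36 and there were 1234 of all genes. Over all genes the count past the adjusted threshold was 1 with a replicate block, 1 when the prior variance followed the mean level, and 0 to 15 with single arrays left out. The median change of the 36 genes ran from 0.0019 to 0.051 with single arrays left out, and was highest without KO replicate 1. With 1 array left in a genotype, that array is assumed to vary like the others.

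Of the 36 genes, 24 kept their direction under all 13 fits. Idh3g turned to -0.0166 with quantile normalization, -0.0024 with median centring and -0.0088 with cyclic loess, and Suclg2 to 0.0025 with the mean of its probe sets and 0.094 with the most variable one. With single arrays left out the change crossed 0 for Idh3b (-0.16 to 0.099), Idh3g (-0.035 to 0.040), Dlst (-0.051 to 0.076), Dld (-0.13 to 0.031), Suclg1 (-0.28 to 0.068), Idh2 (-0.15 to 0.033), Mdh1 (-0.17 to 0.060), Pdha1 (-0.035 to 0.16), Pdk2 (-0.0035 to 0.19), Pdp2 (-0.41 to 0.044) and Me2 (-0.17 to 0.34). The count of the 36 at an unadjusted limma p under 0.05 was 2 with the replicate block, Pck2 and Pcx (5.56%, beside 5.32% of all genes). With the mean trend it was 10 (27.8%, beside 5.49% of all genes). Among other genes described, changes that shrank by over 1.5 times included Sucla2 and Pdp1 without WT replicate 1 (-0.17 and -0.035). Idh1, Pdk3 and Pdk4 shrank so without KO replicate 1 (0.042, -0.091 and -0.067). Without KO replicate 2, Pdk1, Cs and Pdpr fell to 0.16, 0.053 and 0.0041. Without WT replicate 2, Idh3a and Fh1 moved to 0.11 and -0.054. The change of Pck1 was 0.11 at its lowest with single arrays left out. Deviations from the genotype means correlated at -0.073 across genes for arrays of the same replicate number. With 2 arrays a genotype this is a single correlation, and it cannot show whether the samples were paired.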

Other observations

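The value of Me3 on WT replicate 1 exceeded the highest of the other arrays by 1.88 on the log2 scale, the second largest such excess among 22180 genes. The next was Mb, the myoglobin of slow skeletal muscle and heart, with 4.39 on that array and 2.54 as the highest elsewhere. Mb was the only one of the 24 skeletal muscle markers that was highest on WT replicate 1, and 21 of them were highest on WT replicate 2. Outside those 24 markers, the muscle genes Actn2 (3.84, against 2.70 as the highest elsewhere) and Myh7 (1.61, against 0.58) were also highest on WT replicate 1. By this excess they ranked 23 and 37 among 22180 genes. Mb, Actn2 and Myh7 were picked to set beside Me3 after values were seen, so they do not stand for muscle genes as a group. No test was made, and the source of the Me3 value was not tested.

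A further probe set was annotated to 5 of the 36 genes. The unused one for Mpc1 was above background on all 4 arrays, with 4.41 and 4.16 in KO and 4.33 and 4.14 in WT, a log2 change of 0.054 beside 0.15 for the probe set used. The unused ones for Me3 and Got2, above background on 3 and 2 arrays, differed by 0.30 and 0.093, opposite in sign to the brighter probe sets at -1.20 and -0.50. Those for Pdk1 and Suclg2 were at or below background on all 4 arrays.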
